A study of Mus musculus with 27 samples.

Results

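Inhibitory receptor genes were examined in 9 groups of sorted mouse retinal cells: the subunits of GABA-A, glycine and GABA-B receptors and the scaffold, adhesion and trafficking genes that go with them. The set held 28 named genes, chosen by symbol in the array's probe table, of 19301 genes with a symbol. Each of the 28 was read by 1 probe set. The series has 27 arrays, 3 per group, each made from 200 fluorescent cells sorted from dissociated adult retina, and was designed to ask whether array values follow the amount of RNA of a cell group. Starburst amacrine cells came from a cross of 129S6-Chat_tm1(cre)Lowl/J with Rosa26-LSL-RFP mice, in which Cre made from the Chat locus switches on a red reporter. Cones came from Tg(Chrnb4-EGFP)1Gsat mice, in which a Chrnb4 transgene drives GFP. A further 6 groups mixed these cells at 150 starburst to 50 cone cells, 125 to 75, 100 to 100, 50 to 150, 43 to 157 and 17 to 183. The ninth group held amacrine cells of Tg(Arc-EGFP)194Gsat/Mmcd mice, which the study used as a control between batches. Every group is labelled with a genetic background that mixes C57BL/6J with an FVB/N-Swiss Webster hybrid, and the labels mention a recessive photoreceptor degeneration mutation in the founder mice, which were backcrossed. Retinas of several mice were pooled before sorting, and the mixtures were sorted 3 times from different mice. Each cell type has a reporter line of its own, so cell type and line cannot be told apart.

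GABA-A receptors are chloride channels assembled from several subunits, and their makeup sets where they sit and how they respond. Receptors with the delta subunit (Gabrd), often partnered with alpha 4 (Gabra4), lie outside synapses and respond to low ambient GABA, whereas gamma subunits bring receptors to synapses. The subunits of the Gabrr genes form a slow class of receptor known from bipolar cells. Glycine receptors combine alpha subunits with a beta subunit (Glrb) that binds the scaffold gephyrin (Gphn), and GABA-B receptors are G protein-coupled dimers of Gabbr1 and Gabbr2. Starburst cells release both acetylcholine and GABA and inhibit each other and direction-selective ganglion cells.

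Values are log2 intensities after RMA, a summary of each probe set on a log2 scale on which a step of 1 is a doubling. They are compared within a gene, never between genes. The median of all values was 2.83, and a gene was tested where at least 3 of the 27 arrays lay above it. A gene is called different where limma, fitted on all 27 arrays and 12441 genes, gave a Benjamini-Hochberg adjusted p under 0.05 and a log2 fold change of at least 1 in size. All folds are given ± SE from this fit and all group means ± SD with n = 3 arrays.

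The cell labels were checked on their defining genes. The vesicular acetylcholine transporter gene Slc18a3 lay at 10.59 to 10.77 in pure starburst arrays and at 2.81 to 3.56 in the pure cone and Arc arrays. Chat, whose locus drives the starburst reporter, lay at 3.81 to 4.58 in pure starburst arrays and at 2.71 to 3.21 in the pure cone and Arc arrays. The cone opsin gene Opn1mw lay at 10.18 to 11.34 in pure cone arrays. The gene Arc lay at 4.46 to 4.58 in Arc amacrine arrays and at 2.79 to 3.63 in the other 8 groups. Opn1mw also read 6.04 in the second pure starburst array, against 3.93 and 3.94 in the other 2 and 2.92 to 3.21 in Arc arrays. In the first Arc array the cone genes Opn1sw and Gnat2 read 5.93 and 4.86, against 3.27 to 3.53 and 3.24 to 3.36 in the others. In the first starburst array they read 4.67 and 5.65, beside 5.68 and 4.81 in the second and 2.82 and 3.24 in the third. The rod gene Gnat1 lay at 7.42 to 8.49 in starburst, 6.52 to 7.18 in Arc and 8.11 to 10.41 in pure cone arrays. In the third arrays of the cone-rich groups cone genes were lower and rod genes higher: over 9 cone genes the mean was 7.50 in the third pure cone array and 8.93 in the other 2, and over 7 rod genes it was 7.75 against 6.26 and 6.16. Over 7 genes listed as amacrine markers the same array lay at 4.53 against 3.91 and 3.75. Of the 7, Gad2 and Elavl4 were high in Arc cells (5.83 and 5.88) and not in starburst cells (2.30 and 2.49). Over 9 starburst genes the array lay at 3.20 against 3.08 and 2.98. Without the third arrays of the pure cone group and of those with 17, 43 and 50 starburst cells, 0 calls of a receptor gene between pure groups or along the titration were lost. The third array with 125 starburst cells also had lower cone genes (4.84 against 6.98 and 6.83), and without it the same 4 receptor genes were called against pure cones.

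Of the 28 genes, 17 passed the filter and 11 did not. The 11 were the GABA-A subunit genes Gabra5, Gabra6, Gabrb2, Gabrg3, Gabre, Gabrp, Gabrq and Gabrr1 and the glycine receptor alpha genes Glra1, Glra2 and Glra3. Their values ran from 1.67 to 3.10 over all arrays. Gabra5, Gabre, Gabrp, Gabrq, Glra1, Glra2 and Glra3 were above 2.83 on 0 arrays, and Gabra6, Gabrb2, Gabrg3 and Gabrr1 on 1 array each. Just inside the filter lay Gabrg1 and Gabbr2 with 3 arrays above it and Gabra3 and Gabrr3 with 4. A gene that passed had to be bright in some arrays, so counts below describe the 17 that passed and not the whole set.

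**Figure D1:**
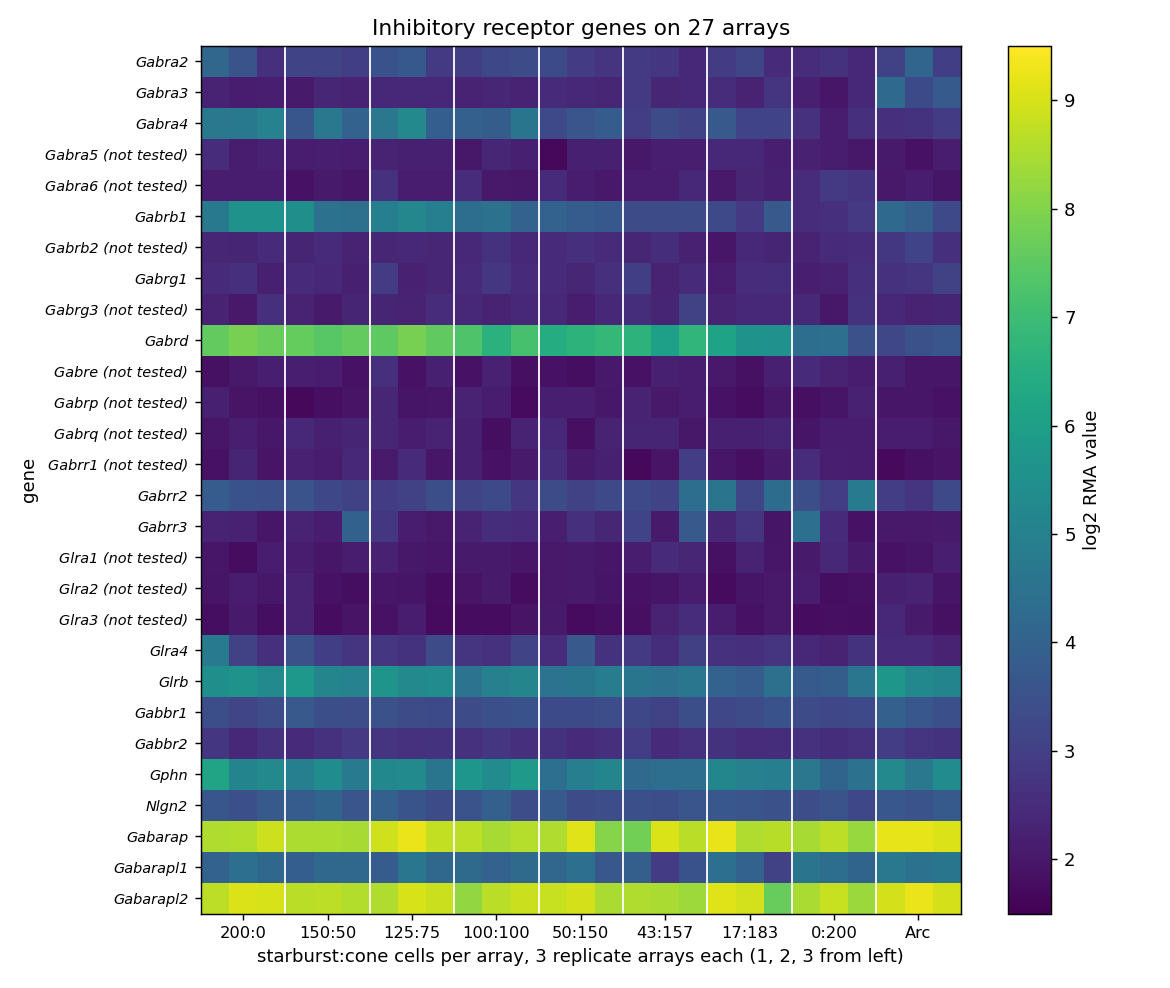
Log2 RMA value (colour) of the 28 genes (rows) on the 27 arrays (columns), grouped by starburst and cone cell numbers with the Arc amacrine group last and white lines between groups; colours compare arrays within a row, not genes with each other. The Gabrd row runs from 7.58 to 7.86 in pure starburst arrays down to 3.47 to 4.43 in pure cone arrays, and Gabra3 stands out in the Arc arrays.

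Between pure cones and pure starburst cells, 5 of the 17 genes were called lower in cones and 0 higher, which is 29.4% against 5.79% called lower over all 12441 genes (2.64% were called higher). The 5 were Gabrd, Gabrb1, Gabra4, Glrb and Gphn. The highest pure cone values of Gabra4 and Gabrb1 were 2.65 and 2.82, so both passed the filter only through groups in which they were higher. The share is therefore given as a description, as are the counts along the titration and in the mixtures. The median log2 fold over the 17 was -0.22, and over all tested genes -0.04. Each array was made from 200 sorted cells by design. A lower value can still mean less RNA in each cell or fewer cells with that RNA, which bulk samples cannot tell apart.

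Gabrd encodes the delta subunit of extrasynaptic GABA-A receptors and had the largest fold of the 17 genes. The pure starburst arrays read 7.58, 7.86 and 7.68, the pure cone arrays 4.38, 4.43 and 3.47, and the Arc amacrine arrays 3.20, 3.47 and 3.65. The starburst arrays did not overlap with either other type, while cone and Arc arrays did. The cone mean of 4.09 ± 0.54 lay 3.62 ± 0.25 below the starburst mean of 7.71 ± 0.14, a 12.3-fold difference (limma adjusted p = 8.3e-10). The Arc mean of 3.44 ± 0.23 lay further below, at -4.27 ± 0.25 against starburst cells (19.3-fold, limma adjusted p = 3.5e-11). Between the Arc and cone groups Gabrd was not called (-0.65 ± 0.25, limma adjusted p = 0.0708).

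Gabra4 and Gabrb1 encode an alpha and a beta subunit and are direct neighbours in the RefSeq gene table, in a cluster that also holds Gabrg1 and Gabra2. Gabra4 read 4.71, 4.74 and 5.04 in starburst cells, 2.65, 2.14 and 2.60 in cones and 2.62, 2.66 and 2.93 in Arc amacrine cells. Gabrb1 read 4.72, 5.61 and 5.59 in starburst cells, 2.50, 2.59 and 2.82 in cones and 4.24, 3.93 and 3.27 in Arc cells. Both were thus high in starburst cells and near or under the median of all values in cones, and they parted in Arc cells, where Gabrb1 was intermediate with no overlap with either other group. The cone fold was -2.36 ± 0.30 for Gabra4 (5.15-fold, limma adjusted p = 7.7e-06) and -2.67 ± 0.29 for Gabrb1 (6.38-fold, limma adjusted p = 7.6e-07). The Arc fold against starburst cells was -2.09 ± 0.30 for Gabra4 (limma adjusted p = 5.5e-05) and -1.49 ± 0.29 for Gabrb1 (limma adjusted p = 0.00164). Against cones, Arc cells were called higher for Gabrb1 (1.18 ± 0.29, limma adjusted p = 0.00522) and not for Gabra4 (0.27 ± 0.30, limma adjusted p = 0.614). Without the first Arc array the Gabrb1 difference fell to 0.97, under the minimum fold. The cone means of both genes (2.46 and 2.64) and the Arc mean of Gabra4 (2.73) lay under 2.83, so these folds depend on the background of the array.

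Since these neighbours were both high in starburst cells, though they parted in Arc cells, their upstream sequences are shown. They come from the RefSeq promoter table (build GRCm38.p6, while the submitters' processing notes name mm9). It held windows for 26 of the 28 genes, all but Gabrd and Glra1. The Gabra4 start (minus strand) and the first Gabrb1 start (plus strand) lie 387 bases apart, and a second Gabrb1 start lies 41624 bases from the Gabra4 start. Each window below holds the 250 bases upstream of a start, 5′ to 3′ on the gene's strand: Gabra4 at chr5:71658309-71658558 (minus) and the second Gabrb1 start at chr5:71699682-71699931 (plus). Capitals mark matches to 4 motifs, each searched on both strands. The core shared by many homeodomain factors was spelled TAAT. The core bound by Sox factors was spelled ACAAT. The GC box was spelled GGGCGG. The TATA box was spelled TATAAA, and no motif spelling lies inside another.
Gabra4: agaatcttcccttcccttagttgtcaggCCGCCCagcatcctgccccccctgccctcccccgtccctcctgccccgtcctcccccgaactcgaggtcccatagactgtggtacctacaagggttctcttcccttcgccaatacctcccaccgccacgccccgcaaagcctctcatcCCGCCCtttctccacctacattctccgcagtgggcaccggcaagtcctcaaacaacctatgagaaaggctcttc
Gabrb1: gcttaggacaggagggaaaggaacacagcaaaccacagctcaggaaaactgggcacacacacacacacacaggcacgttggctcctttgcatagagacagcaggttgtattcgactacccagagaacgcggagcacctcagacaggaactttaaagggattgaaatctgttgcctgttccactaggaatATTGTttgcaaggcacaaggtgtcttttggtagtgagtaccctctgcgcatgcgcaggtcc
The Gabra4 window held 2 GC boxes and 12 CpG dinucleotides. The Gabrb1 window held 1 Sox core match and 6 CpG. The window of the first Gabrb1 start, which lies within the Gabra4 gene, is not shown. That window held 18 CpG and 0 matches to the 4 motifs. The Gabra4 window shown lies in turn downstream of the first Gabrb1 start, so the genes overlap at their starts. Of all 32851 windows of this length in the table, 54.9% held the homeodomain core, 27.7% the Sox core, 32.7% the GC box and 12.4% the TATA box. Among the 30 windows of the receptor genes 14, 5, 16 and 4 did. A match is a description of letters and not of binding. Which of the Gabrb1 starts is used in these cells was not tested.

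The other genes of that cluster were Gabra2, an alpha subunit gene, and Gabrg1, a gamma subunit gene. Gabra2 read 4.13, 3.55 and 2.58 in starburst cells, 2.51, 2.66 and 2.38 in cones, and 3.06, 4.12 and 2.98 in Arc cells. The starburst arrays thus spread widely, with the third among the cones. It was not called in cones against starburst cells (-0.90 ± 0.32, limma adjusted p = 0.0648) or in Arc cells against cones (0.88 ± 0.32, limma adjusted p = 0.0619). Without the third starburst array the cone fold of Gabra2 was -1.32 and was called (limma adjusted p = 0.00541), but without the first starburst array it was not called. Without the third Arc array the Arc fold against cones was 1.08 and was called (limma adjusted p = 0.0432). Gabrg1 ran from 2.14 to 3.04 over all arrays and was not called in any comparison of pure groups.

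Gabra3, another alpha subunit gene, had the opposite pattern. It read 4.24, 3.29 and 3.75 in Arc amacrine cells, 2.30, 2.15 and 2.17 in starburst cells and 2.19, 1.99 and 2.38 in cones. All 3 Arc arrays lay above every other array of the series, the highest of which was 2.87. The Arc fold was 1.55 ± 0.18 against starburst cells (limma adjusted p = 4.2e-06) and 1.57 ± 0.18 against cones (limma adjusted p = 1.9e-06). Both other means (2.21 and 2.19) lay under 2.83, so these folds too depend on the background of the array. Starburst cells and cones did not differ detectably (-0.02 ± 0.18, limma adjusted p = 0.962). Of the 4 arrays of Gabra3 above the filter 3 were the Arc arrays, so it was tested only through the group in which it is high, and a stricter filter left it untested. As the gene called higher in Arc cells than in both other types, its upstream window is shown in the same way, for its first start at chrX:72656920-72657169 (minus strand), where 1 Sox core and 1 TATA box match lie and 0 CpG. The window of its second start, which overlaps with the first, held 2 homeodomain core matches, 1 TATA box match and 0 Sox core matches.
Gabra3: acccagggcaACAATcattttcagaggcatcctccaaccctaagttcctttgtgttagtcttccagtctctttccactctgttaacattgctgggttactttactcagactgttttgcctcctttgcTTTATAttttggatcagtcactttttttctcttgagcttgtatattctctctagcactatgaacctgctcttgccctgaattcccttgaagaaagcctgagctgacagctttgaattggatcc

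**Figure D2:**
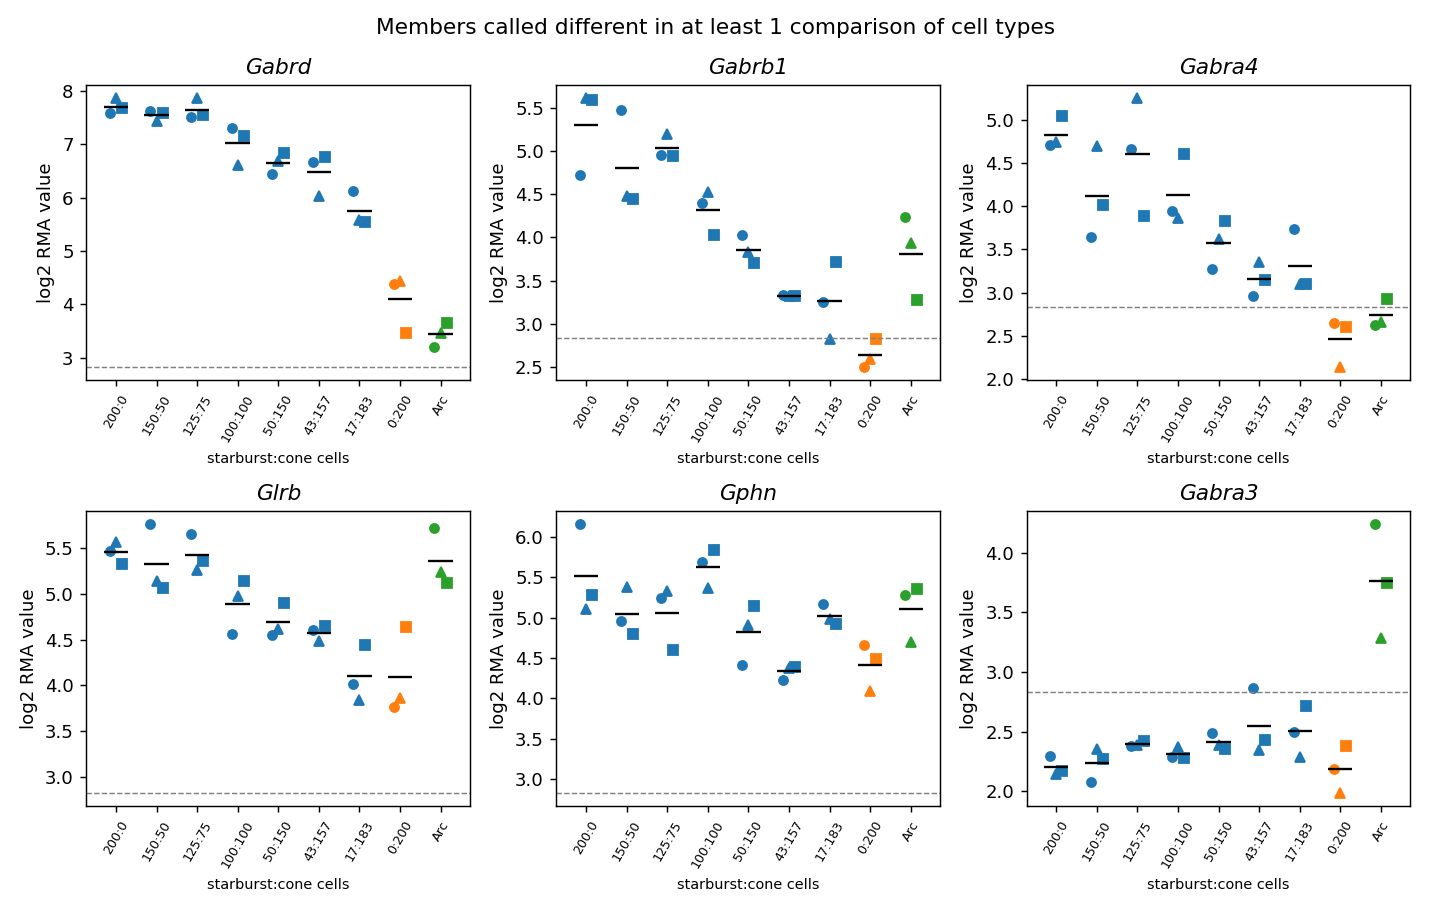
Log2 RMA value of the 6 genes called in any comparison of cell types, by array, for groups ordered by starburst:cone cell numbers (blue: groups with starburst cells, orange: pure cone, green: Arc amacrine); circles, triangles and squares are replicates 1, 2 and 3, bars are group means, and the dashed line is the median of all values, 2.83. Gabrd goes from a mean of 7.71 in pure starburst cells to 4.09 in pure cones, with 7.55 at 150 and 7.64 at 125 starburst cells. Gphn does not change step by step with cell number, and Gabra3 is raised in the Arc group alone among the 9 groups plotted.

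Of the Gabrr genes, Gabrr2 and Gabrr3 passed the filter and were not called in any comparison of pure groups. Gabrr2 read 3.43, 2.94 and 4.79 in cones, 3.82, 3.50 and 3.46 in starburst cells and 2.94, 2.73 and 3.25 in Arc cells. The third cone array stood far above the other cone arrays, and the mixtures with 17 and 43 starburst cells also held arrays at 4.58, 4.34 and 4.40. These were the first and the third array with 17 starburst cells and the third with 43. Bipolar cell genes (7 measured) had a mean of 3.28 to 3.55 over the cone arrays, 3.30 to 3.62 with 17 starburst cells, 3.04 to 3.23 with 43, 2.56 to 3.16 in starburst cells and 2.70 to 2.83 in Arc cells. The higher cone values were those of Cabp5 (5.64 in cones, 3.08 in starburst cells) and Otx2 (5.50 and 3.79), a gene that photoreceptors also express. The bipolar genes Grm6 (2.76 and 2.68) and Trpm1 (2.54 and 2.48) lay under the median of all values in both. The part of bipolar cells in the Gabrr2 values was not tested. Gabrr3 read 4.43, 2.48 and 1.89 in cones and 2.29, 2.23 and 1.98 in starburst cells, so that its cone mean rested on the first array. The cone fold was 0.13 ± 0.39 for Gabrr2 (limma adjusted p = 0.884) and 0.77 ± 0.50 for Gabrr3 (limma adjusted p = 0.363).

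Of the glycine receptor genes, the beta subunit gene Glrb and the alpha subunit gene Glra4 passed the filter. Glrb read 5.47, 5.57 and 5.33 in starburst cells, 5.72, 5.24 and 5.12 in Arc cells and 3.77, 3.86 and 4.64 in cones. Both amacrine groups lay above every cone array and overlapped with each other. The fold was -1.36 ± 0.23 in cones against starburst cells (2.57-fold, limma adjusted p = 2.6e-04) and 1.27 ± 0.23 in Arc cells against cones (2.41-fold, limma adjusted p = 4.2e-04). Arc and starburst cells were not called (-0.09 ± 0.23, limma adjusted p = 0.921). The highest cone value was that of the third array, in which the means over the listed amacrine genes and over the rod genes were also higher. The part of other cell types in this Glrb value was not tested. Without the third cone array the folds were -1.64 and 1.54. After quantile normalization of the arrays the Arc fold against cones was 0.98, under the minimum.

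Glra4 showed how far replicate arrays could part. Its starburst arrays read 4.84, 3.04 and 2.60 against 2.38, 2.30 and 2.66 in cones and 2.46, 2.44 and 2.31 in Arc cells. The first starburst array alone was far above the rest, and the third lay among the cones. The cone fold of -1.05 ± 0.39 was not called (limma adjusted p = 0.0802), nor was the Arc fold of -1.09 ± 0.39 against starburst cells (limma adjusted p = 0.123). Without the third starburst array these became -1.49 (limma adjusted p = 0.0142) and -1.54 (limma adjusted p = 0.0220), both called. With Gabra2 called as well, the count for cones against starburst cells then rose to 7, and that for Arc against starburst cells to 5. Without the first starburst array, the outlying one, neither Glra4 nor Gabra2 was called in these comparisons.

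**Figure D3:**
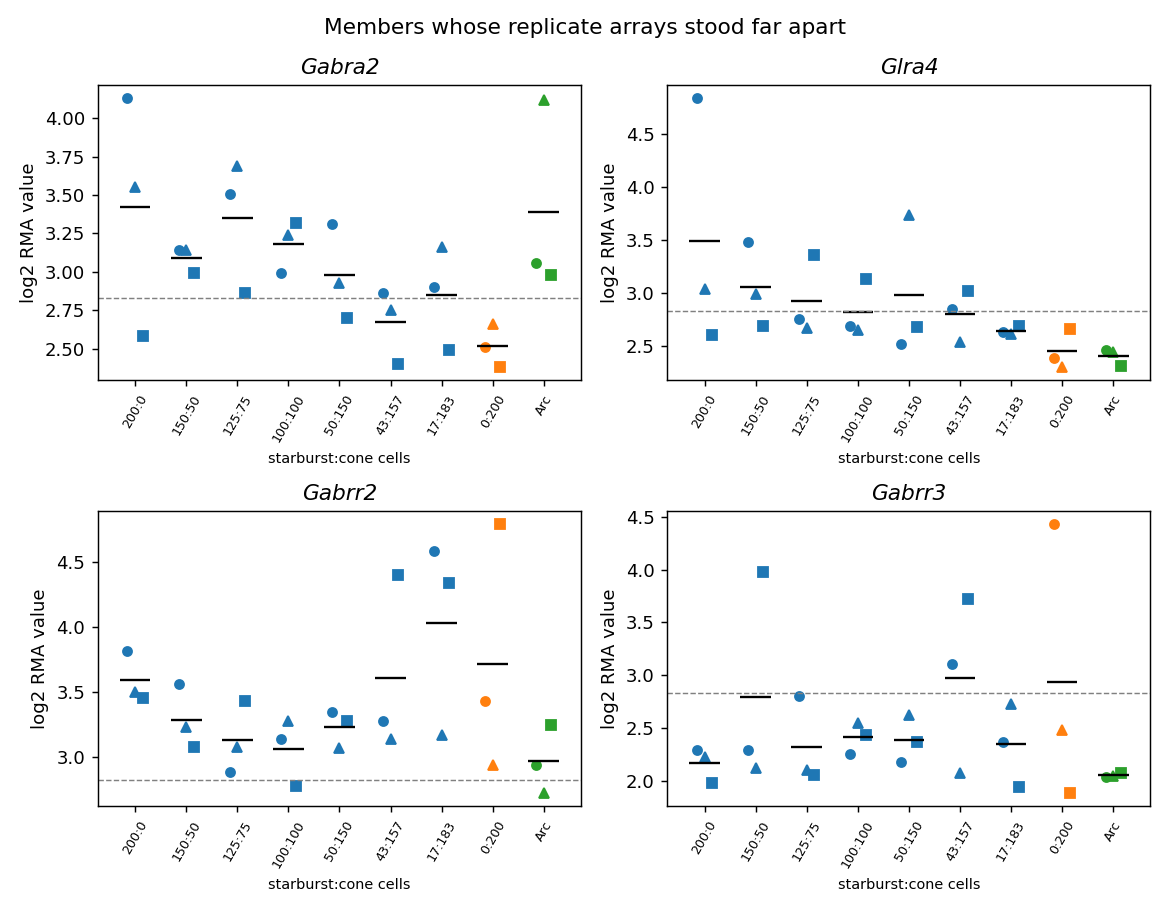
Log2 RMA value by array of 4 genes whose replicate arrays stood far apart, with groups, colours, symbols, bars and the dashed line at 2.83 as in the plot of called genes. The first starburst array of Glra4 is at 4.84 and the other 2 at 3.04 and 2.60, and the third cone array of Gabrr2 is at 4.79.

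Gphn encodes gephyrin, the scaffold under glycine receptors and many synaptic GABA-A receptors. It read 6.16, 5.11 and 5.28 in starburst cells, 4.66, 4.09 and 4.49 in cones and 5.28, 4.70 and 5.36 in Arc cells. All starburst and Arc arrays lay above all cone arrays, the nearest at 4.70 against 4.66. The cone fold was -1.11 ± 0.26 (2.15-fold, limma adjusted p = 0.00569). It depended on the first starburst array, the highest of the group: without it the fold was -0.78 (limma adjusted p = 0.0553). It was also lost without the second cone array (-0.95), after quantile normalization (-0.90) and in a fit of the 2 groups alone (limma adjusted p = 0.0776), and it was -0.82 without the first starburst and the third cone array (limma adjusted p = 0.0796). Gphn was not called in Arc cells against starburst cells (-0.41 ± 0.26, limma adjusted p = 0.523) or cones (0.70 ± 0.26, limma adjusted p = 0.0704). Nlgn2, the adhesion molecule of inhibitory synapses, had group means of 3.39 to 3.84 and was not called in any comparison of pure groups, with a cone fold of -0.22 ± 0.17 (limma adjusted p = 0.461).

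Neither GABA-B receptor gene was called. Gabbr1, the subunit that binds GABA, had means of 3.32 ± 0.13 in starburst cells, 3.27 ± 0.07 in cones and 3.70 ± 0.24 in Arc cells. The Arc arrays (3.95, 3.68 and 3.46) all lay above the cone arrays (3.34, 3.20 and 3.26), and that difference of 0.43 ± 0.14 had a limma adjusted p of 0.0330 but fell under the minimum fold. The cone fold against starburst cells was -0.05 ± 0.14 (limma adjusted p = 0.860). Gabbr2, the subunit that couples to G proteins, had group means of 2.57 to 2.79, all under the median of all values, and a cone fold of 0.02 ± 0.13.

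The GABARAP family, small ubiquitin-like proteins first linked to GABA-A receptor transport and active in autophagy, lay above 2.83 on all 27 arrays. Gabarap ran from 7.80 to 9.25 over the 27 arrays, Gabarapl2 from 7.65 to 9.28 and Gabarapl1 from 2.88 to 4.70. Among the pure groups, 0 of the 3 were called. The Arc means were the highest of the 9 groups for all 3, at 9.16 ± 0.08, 9.09 ± 0.16 and 4.61 ± 0.09. The Arc folds against cones were 0.69 ± 0.26 for Gabarap (limma adjusted p = 0.0727), 0.55 ± 0.27 for Gabarapl2 (0.174) and 0.26 ± 0.29 for Gabarapl1 (0.611). Their cone folds against starburst cells were -0.20 ± 0.26, -0.39 ± 0.27 and 0.14 ± 0.29.

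Counted over roles, the genes called between the 2 amacrine groups were GABA-A subunit genes: Gabrd, Gabra4 and Gabrb1 lower in Arc cells and Gabra3 higher. Over all tested genes 3.55% were called in either direction (2.16% higher and 1.39% lower in Arc cells). The 4 are 23.5% of the 17. That share includes Gabra3, which passed the filter through its Arc arrays, and Gabra4, which passed it mainly through arrays with starburst cells. It is given as a description. The median fold over the 17 was -0.03, and over all genes 0.03. Against cones, 3 of the 17 were called higher in Arc cells and 0 lower (Gabra3, Glrb and Gabrb1). That is 17.6%, again with Gabra3 among them, beside 7.83% of all tested genes called higher and 2.51% lower. Gabrb1, at most 2.82 in pure cone arrays, also passed the filter only through groups in which it was higher. This share too is given as a description. The median fold was 0.43 over the 17 and 0.07 over all genes. The 3 comparisons share their groups in pairs and are not independent of each other.

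**Figure D4:**
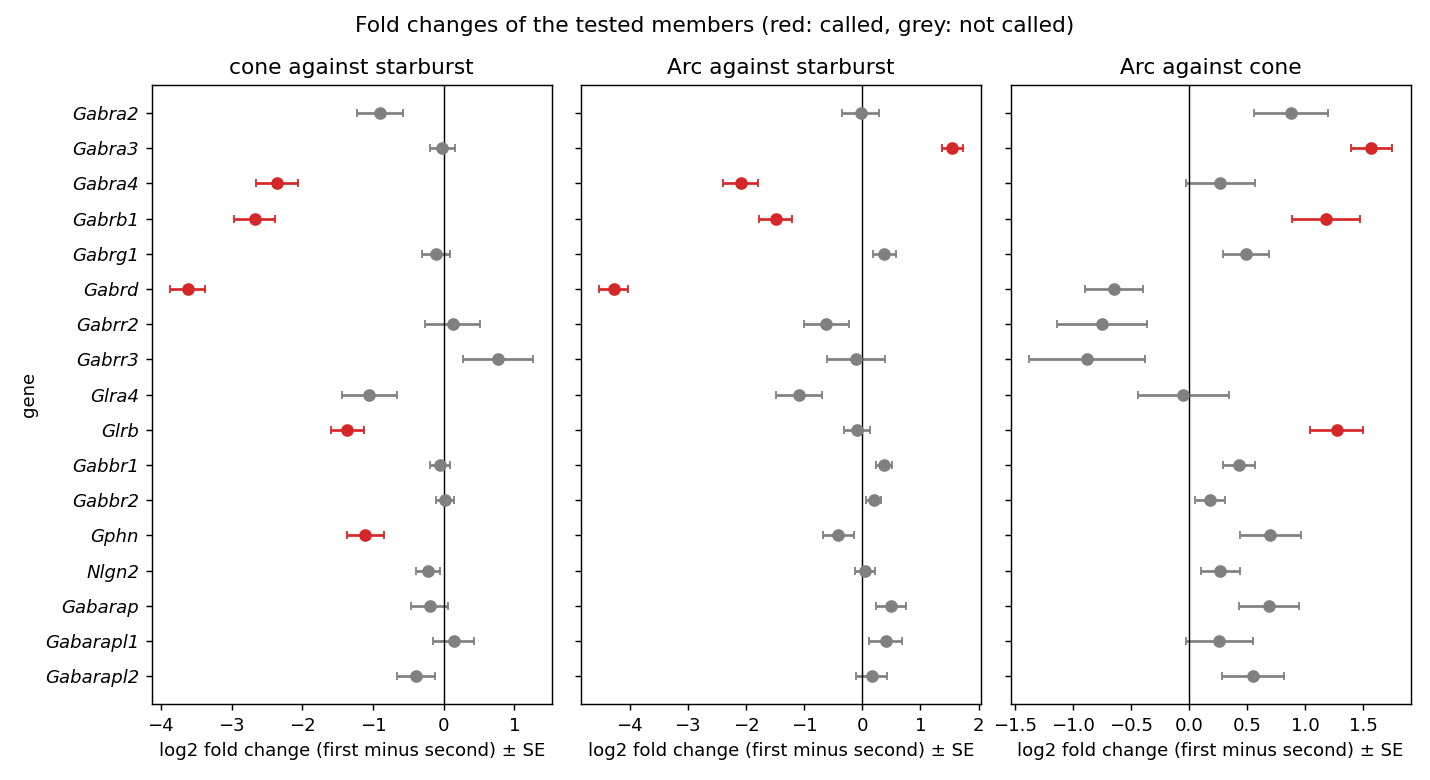
Log2 fold change ± SE of the 17 tested genes for cones against starburst cells, Arc amacrine cells against starburst cells and Arc cells against cones (first minus second); red points are called (limma adjusted p under 0.05 and a fold of at least 1 in size), grey points are not. Gabrd lies at -3.62 and -4.27 against starburst cells, and Gabra3 at 1.55 and 1.57 in the 2 Arc comparisons.

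The mixtures show at which starburst cell number a receptor gene could be told from a pure cone sample. Gabrd was called with the fewest cells: 17 starburst cells among 200 gave 6.13, 5.58 and 5.54, above all 3 cone arrays, a rise of 1.66 ± 0.25 over pure cones (limma adjusted p = 4.6e-04). With 43 cells it read 6.66, 6.03 and 6.77 (2.40 ± 0.25, limma adjusted p = 2.1e-06). With 50 cells it read 6.45, 6.68 and 6.84 (2.56 ± 0.25, limma adjusted p = 5.2e-07). It went on to 7.30, 6.61 and 7.16 with 100 cells, 7.52, 7.86 and 7.54 with 125 and 7.62, 7.43 and 7.59 with 150, and the last 2 of these groups overlapped with pure starburst arrays. Gabrd was the only 1 of the 17 called at 17 and at 43 cells, where 0.651% and 1.02% of all tested genes were called higher.

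Gabrb1 was next, called with 50 starburst cells (4.03, 3.83 and 3.70, a rise of 1.22 ± 0.29, limma adjusted p = 0.0246), where 2 of the 17 were called against 1.24% of all genes. That call was lost when any of 5 of the 6 arrays compared was left out, namely the first or second cone array or any array with 50 cells, with limma adjusted p from 0.0551 to 0.0893. Gabrb1 was called at every higher number, with rises of 1.68 ± 0.29, 2.40 ± 0.29 and 2.16 ± 0.29 at 100, 125 and 150 cells. Gabra4 was called from 100 cells (1.67 ± 0.30, limma adjusted p = 0.00103), and rose by 2.13 ± 0.30 and 1.65 ± 0.30 at 125 and 150 cells. Glrb was called at 125 cells (1.33 ± 0.23, limma adjusted p = 4.0e-04) and 150 cells (1.23 ± 0.23, limma adjusted p = 0.00116). At 100 cells Glrb had a limma adjusted p of 0.0506 and a rise of 0.80 ± 0.23; without the third cone array it was called there. Gphn was called at 100 cells alone (1.22 ± 0.26, limma adjusted p = 0.00638) and not at 125 or 150 cells (0.64 ± 0.26 and 0.63 ± 0.26, limma adjusted p = 0.136 and 0.156). At 100, 125 and 150 cells 4 of the 17 were called higher, against 2.56%, 4.16% and 3.95% of all tested genes. The 6 comparisons share the pure cone arrays.

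A line through the 5 titration groups (200, 150, 100, 50 and 0 starburst cells) gave the log2 change from all starburst to all cone. It was -3.25 ± 0.22 for Gabrd (limma adjusted p = 8.0e-10), -2.52 ± 0.26 for Gabrb1 (3.3e-07), -2.11 ± 0.27 for Gabra4 (6.8e-06) and -1.34 ± 0.21 for Glrb (7.7e-05). These 4 of 17 (23.5%) were called lower, against 5.8% of all tested genes, and the slopes share their end groups with the cone and starburst comparison. Gphn had a slope of -0.97 ± 0.24 and a limma adjusted p of 0.00558, just under the minimum fold. Without the third starburst array 7 were called, with Gabra2, Glra4 and Gphn added. Without the first starburst array none of these was added.

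On the linear scale, an array can be placed between the pure cone mean, set to 0%, and the pure starburst mean, set to 100%. For Gabrd the mean positions were 19.3% ± 6.84 with 17 cells (8.5% of the cells), 38.7% ± 12.2 with 43 cells (21.5%), 43.5% ± 7.02 with 50 (25%), 60.0% ± 16.4 with 100 (50%), 95.5% ± 14.3 with 125 (62.5%) and 88.4% ± 6.81 with 150 (75%), each ± SD over 3 arrays. All 6 means and 17 of the 18 mixture arrays of Gabrd lay above the share of starburst cells. Of the other called genes, 7 of 18 arrays lay above the share for Gabrb1, 9 for Gabra4, 11 for Glrb and 9 for Gphn. Over all 720 genes called lower in cones, which include these 5, the median positions were 21.9%, 25.7%, 35.0%, 55.8%, 76.8% and 76.0% in the same order, and 51.2% to 80.7% of genes lay above the share. The positions of Gabrd were thus above the share as those of most such genes were, and whether Gabrd differs from them was not tested.

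The other genes ranged widely about the share. Gabrb1 stood at 10.8% with 43 cells and 39.8% with 100, below the share in all 6 of these arrays. On the log2 scale, which by its construction places a linear mixture above its share, Gabrb1 stood at 25.8% and 63.0% in these groups, and all 6 of its mixture means lay above the share. Gabra4 ran from 14.7% with 43 cells to 89.0% ± 50.4 with 125, where its arrays spanned 40.2% to 141%. Glrb stood at -1.15% ± 14.5 with 17 cells and 97.3% ± 23.8 with 125. Gphn did not rise step by step with cell number, with 40.9% at 17 cells, -5.31% at 43 and 106% at 100. Its slope over the titration was -0.97 ± 0.24 (limma adjusted p = 0.00558). The starburst arrays of Gphn themselves spanned 48.6% to 187%.

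**Figure D5:**
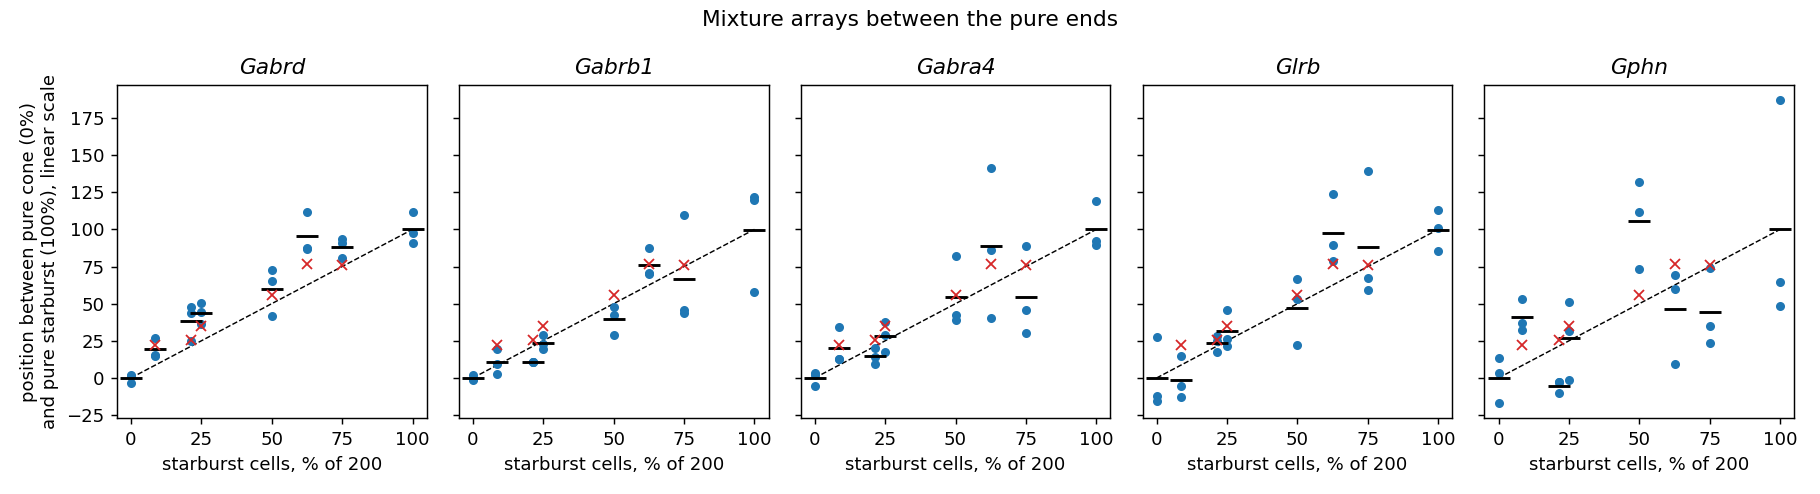
Position of each array between the pure cone mean (0%) and the pure starburst mean (100%) on the linear scale against the share of starburst cells, for the 5 genes called between the pure groups; points are arrays, bars group means, the dashed line the stated share and red crosses the median of the 720 genes called lower in cones. The Gabrd means lie above the line in all 6 mixtures (19.3% at a share of 8.5%), and Gphn ranges from -5.31% to 106%.

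Related genes were read from 4 lists: supply of GABA and glycine, organisers of inhibitory synapses, partners of GABA-B receptors and partners of the GABARAP family. Of 9 tested genes for the making, packing and clearing of GABA and glycine and for chloride, 2 were called lower in cones than in starburst cells: Gad1, which makes GABA (-3.01 ± 0.28, limma adjusted p = 1.2e-07), and Slc32a1, the vesicular transporter (-1.23 ± 0.17, 3.0e-05). That is 22.2%, beside 5.79% of all tested genes. Against starburst cells 1 was called higher in Arc cells, the second GABA-making enzyme Gad2 (3.53 ± 0.24, limma adjusted p = 6.9e-10). That is 11.1%, beside 2.16% of all tested genes. With 1 or 2 genes behind these shares, they are no result about the list. Against cones, Gad1, Gad2 and Slc32a1 were called higher in Arc cells, 33.3% beside 7.83%. These genes are also among the amacrine markers used to check the arrays. Gad2 had means of 5.83 in Arc cells, 2.30 in starburst cells and 2.66 in cones. Its starburst and cone means lay under 2.83, so its folds depend on the background of the array. Gad2 was high in the Arc group alone, and the share of 33.3% is given as a description. The list medians were -0.03, 0.23 and 0.49 in these 3 comparisons, beside -0.04, 0.03 and 0.07 over all genes.

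Of 21 tested organisers of inhibitory synapses and receptor traffic, 1 was called lower and 1 higher in cones than in starburst cells. These were Plcl2, a partner of GABA-A receptor traffic (-1.67 ± 0.43, limma adjusted p = 0.00989), and the dystrophin gene Dmd (1.53 ± 0.17, limma adjusted p = 1.7e-06). In Arc cells Slitrk3, an adhesion gene of inhibitory synapses, was called higher than in starburst cells (1.00 ± 0.29, limma adjusted p = 0.0394). Against cones, Arc cells were called higher for Insyn1 (1.63 ± 0.18) and Plcl2 and lower for Dmd (-1.54 ± 0.17). The shares of the list called in cones, 4.76% lower and 4.76% higher, lay near those of all tested genes, 5.79% and 2.64%. The shares called higher in Arc cells were 4.76% beside 2.16% against starburst cells and 9.52% beside 7.83% against cones. With 1 or 2 genes behind each share, these counts are no result about the list. Its median folds were 0.01, 0.05 and 0.15.

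Of 13 tested auxiliary subunits and effectors of GABA-B receptors, 1 was called lower in cones than in starburst cells, the G protein gene Gnao1 (-1.67 ± 0.32, limma adjusted p = 7.9e-04). That is 7.69%, near the 5.79% of all tested genes. The amyloid precursor-like gene Aplp1 was called higher in Arc than in starburst cells (1.20 ± 0.25, limma adjusted p = 0.00400), 7.69% of the list beside 2.16%. Against cones 4 were called higher in Arc cells (30.8% beside 7.83%), the largest folds being those of Gnao1, Gnai2 and Gnai1, at 1.57, 1.40 and 1.16. Of 15 tested genes of the lipidation and autophagy pathway that GABARAP proteins serve, 2 were called lower in cones than in starburst cells, the cargo receptor Sqstm1 (-1.62 ± 0.31, limma adjusted p = 9.2e-04) and the related Map1lc3a (-1.46 ± 0.21, 3.8e-05). That is 13.3%, beside 5.79% of all tested genes. The same 2 were called higher in Arc cells than in cones, by 1.95 ± 0.31 and 1.50 ± 0.21, which is 13.3% beside 7.83%. Shares of these lists with 1 or 2 genes behind them are no result about the list. The medians of the GABA-B list were -0.42, -0.10 and 0.29 and those of the GABARAP list -0.23, 0.02 and 0.27.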

How the data were processed

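Gene expression was measured on Affymetrix arrays, 27 in 9 groups of 3, with groups and cell numbers taken from the sample titles. The deposited values are log2 RMA values per probe set, which the authors computed with oligo (R 2.11.1) and deposited; the submitters' processing notes also name mm9; which arrays were normalized together is not given in the sources used here. Arrays had medians of 2.78 to 2.89, replicates correlated at 0.935 to 0.979, and no 2 arrays held the same values (0 pairs). Arrays have no read depth; their number limits the precision.

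Of 22347 probe sets, 19446 carried 1 symbol, 735 several and 2166 none; those with 1 symbol were used, and where a gene had several (133 genes) the brightest on average was taken. All 28 symbols matched RefSeq by Entrez number. The 12441 genes that exceeded 2.83, the overall median, on 3 arrays or more entered limma 3.58.1 in R 4.3.3, with group means as coefficients, 18 residual and 3.42 prior degrees of freedom. Calls needed a Benjamini-Hochberg adjusted p under 0.05 over all tested genes and an absolute log2 fold of at least 1, two-sided. Positions between the pure ends were taken on the linear scale. The genes and lists were chosen with earlier results of these data known. All 28 genes are given; called genes are named with every pure array, and of each list up to 3 called genes of largest fold. The replicates came from separate sorts, but whether arrays with the same number share a pool is stated only for the titration groups. As a check, deviations from the group mean of same-numbered titration arrays correlated at -0.03 to 0.23, over 0.1 in 2 of 30 pairs. Both of these were between pure cones and the group with 50 starburst cells (0.17 and 0.23). Replicate number was not a term. Such a correlation cannot exclude a pool effect on some genes, and a fit with replicate as a block was run as an alternative. On simulated data for cones against starburst cells with 50 genes per fold among 12441, the recovered share was 30% at a simulated log2 change of 1, 90% at 2, 100% at 3 and 100% at 4, and 1 unchanged gene was called. Promoter windows came from a RefSeq table.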

Additional observations from a re-analysis of the deposited data

How the results depend on the processing

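Alternatives to the filter, the arrays in the fit, the normalization, the probe set, the variance prior, the minimum fold and the arrays kept were run. Over refits of single fold changes, 422 kept the call, 12 lost it (5 for Gphn in cones against starburst cells, 5 for Gabrb1 with 50 cells, 1 each for Glrb and Gabrb1 in Arc cells against cones) and 0 reversed. Leaving out each array in turn gave 4 to 7 genes called for cones against starburst cells, 4 to 5 for Arc against starburst cells, 2 to 4 for Arc against cones and 4 to 7 for the titration slope. It gave 1 to 1 with 17 and 43 cells, 1 to 2 with 50, 4 to 5 with 100 and 4 to 4 with 125 and 150; these mixture refits, and those without the third cone-rich arrays (which lost 0 member calls) or without the first starburst and the third cone array, were chosen after seeing the data. With the replicate block the counts were 5, 4, 3 and 4 in the 4 comparisons, as without it, and in the mixtures 1, 1, 2, 4, 4 and 4; the block changed no other call. With no minimum fold Gabbr1 was called in Arc cells against cones and Gphn for the slope, and over all genes 1752, 715, 2207 and 2098 were called in place of 1048, 442, 1286 and 1039. Quantile normalization moved the share of higher calls over all genes from 31.3% to 43.2% for cones against starburst cells, from 75.7% to 61.7% for Arc cells against cones and from 30.5% to 43.7% for the slope. The log2 scale moved 15 of 30 mean positions by more than their SD and put 6 group means of Gabrb1 above the share of starburst cells in place of 2, 5 of Gabra4 and 5 of Glrb in place of 4 each, and 6 of Gabrd and 3 of Gphn as on the linear scale. The folds of Gabra4 and Gabrb1 rest on cone means under 2.83 and are limited by the array's background.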
